A study of Saccharomyces cerevisiae with 3 samples.

Results

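The comparison described here sets budding yeast (Saccharomyces cerevisiae) treated with rapamycin for 120 min against untreated cells, in an array measurement of chromatin depleted of the repressor Maf1. Its members are the 6278 array features with a value in both of these columns, of 6399 features listed. Both groups carried myc-tagged Maf1 and grew in the rich medium YPD to an optical density of 0.6. The treated cells received rapamycin at 0.2 ng/ul for 120 min, and the untreated cells received none. Crosslinked chromatin was depleted of Maf1, and DNA of the depleted chromatin (Cy5) was hybridized together with DNA of the input chromatin (Cy3). A column from cells after 30 min in the drug is cited only for its levels. The sources used here do not give the tag's position, the promoter behind the fusion, the strain background, how Maf1 was depleted or the number of independent cultures. An untagged strain was not analysed here.

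Maf1 is a conserved negative regulator of RNA polymerase III (Pol III), the enzyme that makes tRNAs, 5S ribosomal RNA, U6 spliceosomal RNA and a few other short RNAs. Most Pol III promoters lie inside the gene: the factor TFIIIC binds the internal A and B boxes and places TFIIIB upstream of the start, and TFIIIB recruits the polymerase. In growing yeast, kinases under the TOR pathway keep Maf1 phosphorylated and largely away from Pol III. Rapamycin inhibits TOR complex 1, Maf1 loses phosphate and gathers in the nucleus, and Pol III transcription falls.

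Each condition has 1 deposited column, the authors' mean of 3 arrays, so the spread between arrays cannot be had and no difference below was tested. Precision is limited by how few arrays entered each mean. Values are deposited scores minus the median of their column, in score units without a stated log base, and a change is the 120 min value minus the untreated value. Whether depleted or input DNA forms the numerator is not stated in the labels. A higher score is therefore not read as more or less Maf1, and with the sign turned every higher value below becomes a lower one. A feature bears the name of a gene or element. The labels do not place it relative to that gene or say whether it includes it.

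Over the whole array the change was small for most features and wide at its ends. The median change over all 6278 features was 0.07, with quartiles of -0.23 and 0.37, and 3524 features (56.1%) stood above 0. A change above 1 score unit was seen at 234 features (3.73%), and a change below -1 at 235 features (3.74%). The 120 min column was also the wider one: its robust SD (the scaled median absolute deviation) was 0.512, against 0.388 in untreated cells. When both columns were brought to equal robust SD, 56.7% of features stood above 0, 158 features (2.52%) above 1 and 194 (3.09%) below -1. These shares are the background for every count that follows. Across the 6278 features the scores of the 2 columns had a Pearson correlation of 0.59 and a Spearman correlation of 0.57, as a description of columns made on the same array design with the same dyes.

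**Figure D1:**
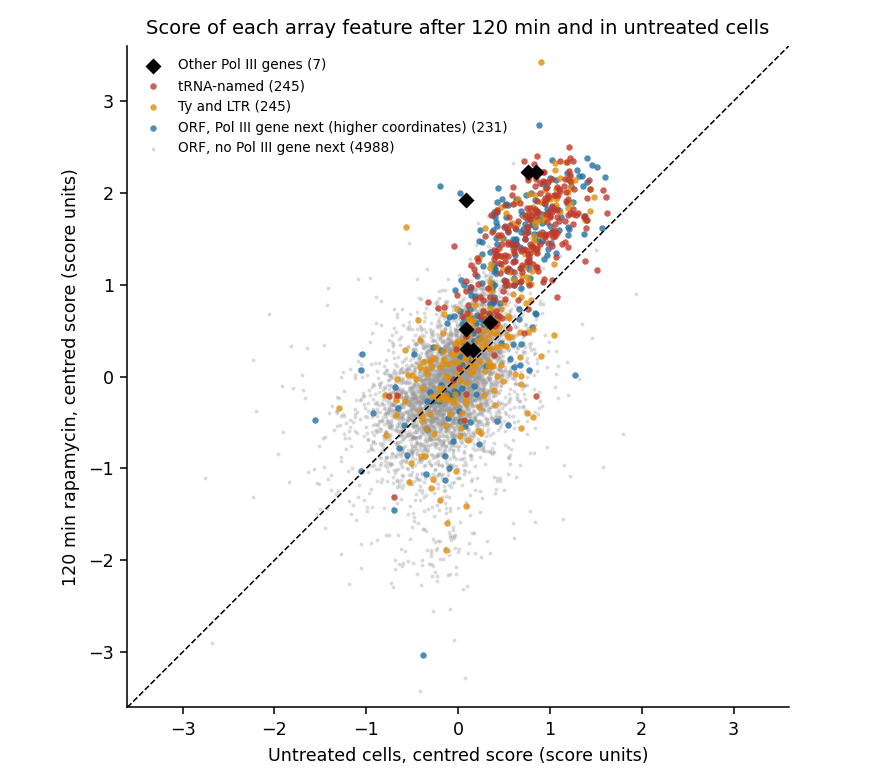
Centred score of each feature after 120 min of rapamycin (y axis) against its score in untreated cells (x axis), both in score units, with the dashed line at equal scores. The tRNA-named features (red) lie mostly above the line, with medians of 1.46 after 120 min and 0.76 in untreated cells, while ORF-named features with no Pol III neighbour (grey) scatter around it and hold most of the lowest scores after 120 min.

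Features named for an open reading frame (ORF) were divided by gene order. Those followed directly by a Pol III gene at higher coordinates are called flanking ORF features here, and those without one on either side isolated ORF features. The makeup of the tails by class was as follows. Of the 234 features above 1, 53 were tRNA-named, 3 were other Pol III genes, 46 were flanking ORF features, and 24 were named for Ty retrotransposons or their long terminal repeats (LTRs). The largest class was 95 isolated ORF features. With equal spread the 158 features above 1 held 102 isolated ORF, 18 flanking ORF, 15 tRNA-named and 7 Ty or LTR features. Of the 235 features below -1, 210 were isolated ORF features, 8 were Ty or LTR features and 1 was tRNA-named. Isolated ORF features made up 4988 of all members: 52.4% of them stood above 0, 1.9% above 1 and 4.21% below -1.

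The high tail held 2 patterns of levels. The 53 tRNA-named features in it had a median score of 1.98 after 120 min, against 0.76 in untreated cells. The 95 isolated ORF features in it had a median of 0.55 after 120 min, against -0.71 in untreated cells. Both sets were picked by a change above 1, so a higher score after 120 min is built in. They differed in their levels: the first set was already high before the drug, and the second was low. After 120 min the second stood a little above the column median. Features that passed from at or below 0 in untreated cells to above 1 after 120 min numbered 9, of which 1 was tRNA-named, tT(CGU)K, with 1.43 after 120 min against -0.04 in untreated cells.

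**Figure D2:**
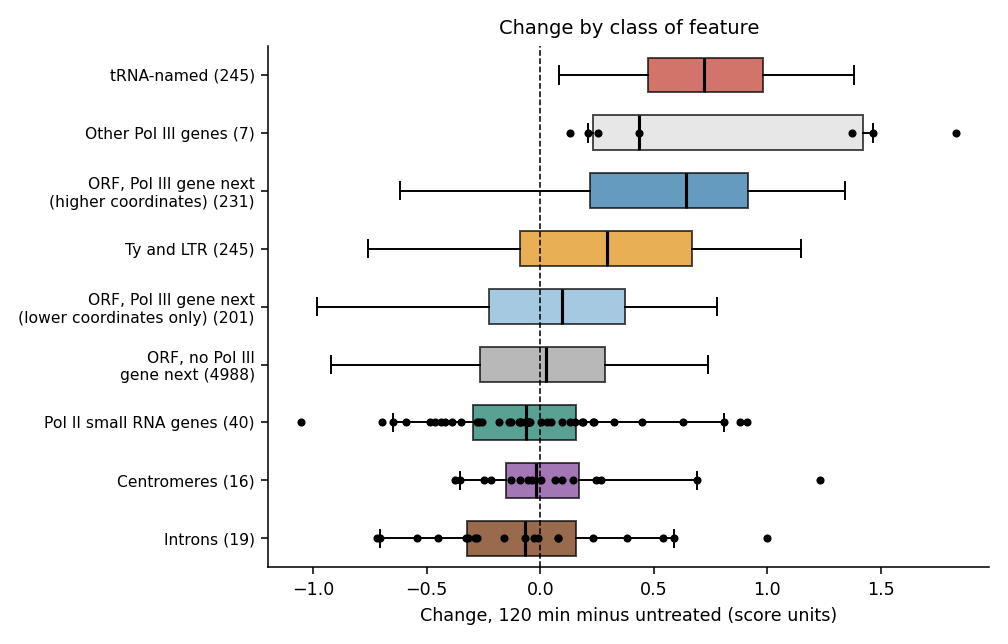
Change in score units (x axis, 120 min minus untreated) by class of feature, with the number of features in brackets. Boxes span the quartiles, the bar is the median, whiskers reach the 5th and 95th percentiles, and dots show each feature of classes under 60. The medians of 0.72 for tRNA-named and 0.64 for flanking ORF features (those with a Pol III gene next at higher coordinates) stand apart from 0.02 for isolated ORF features.

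The tRNA genes are the most numerous Pol III genes, spread over all 16 nuclear chromosomes. Of 250 listed tRNA-named features 245 had a value in both columns, covering 239 gene names. Their scores after 120 min ran from -1.31 to 2.50 with quartiles of 1.13 and 1.82, and their untreated scores from -0.75 to 1.62 with quartiles of 0.46 and 1.01. The distributions overlap, and the lower quartile after 120 min lies above the upper quartile of untreated cells. No tRNA-named feature exceeded 2 in untreated cells or after 30 min, and 38 did after 120 min. In the untreated and 30 min columns no feature of any class did. Their highest deposited scores were 1.93 and 1.68, against 3.45 after 120 min. The change had quartiles of 0.47 and 0.98 around its median of 0.72, against 0.07 over all features, with 234 of 245 above 0. With equal spread of the columns the median was 0.42 and 217 were above 0. After quantile normalization, which gives both columns one distribution, the median was 0.147 and 155 were above 0, against 0.03 for the median over all features. The count above 1 was 53 of 245, and with equal spread 15.

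Single tRNA-named features at the top of this range read as follows. For isoleucine, tI(AAU)N1 had 2.35 after 120 min, against 0.72 in untreated cells. The histidine gene feature tH(GUG)K had 2.41 against 0.86. The valine gene feature tV(UAC)B had 2.32 after 120 min, against 0.83 in untreated cells. The glutamine gene feature tQ(UUG)H had 2.07 after 120 min against 0.59 in untreated cells, and tF(GAA)P1, for phenylalanine, 2.21 against 0.76. These started between 0.59 and 0.86, around the tRNA median of 0.76. The threonine gene feature tT(CGU)K, which changed by 1.47, started lower, at -0.04. The lysine gene feature tK(CUU)F changed by 1.43, the methionine gene feature tM(CAU)J2 by 1.40, tI(AAU)N2 by 1.40 and the arginine gene feature tR(CCG)L by 1.40. The feature of tR(CCG)L had 1.76 after 120 min, against 0.36 in untreated cells. After 30 min tI(AAU)N1 stood at 0.53, tQ(UUG)H at 0.62 and tR(CCG)L at 0.86, each below its value after 120 min. The median over all tRNA-named features was 0.62 after 30 min, lower than the 0.76 of untreated cells.

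The change was shared by the tRNA families. Medians by amino acid lay between 0.53 and 1.08 for all 20, and in 13 of them every measured feature was above 0. Cysteine (3 features, 1.08), glutamine (10 features, 0.96), alanine (11 features, 0.95) and tyrosine (8 features, 0.91) had the highest medians. Proline (12 features, 0.53), glutamate (16 features, 0.54) and aspartate (12 features, 0.58) had the lowest. Aspartate features also started high, with a median of 0.97 in untreated cells, against 0.46 for both alanine and tyrosine. With equal spread the aspartate median was 0.21, below the 0.25 of proline. The ranges within families were wider than the distance between most of their medians: isoleucine features alone ran from 0.02 to 1.63. By chromosome the medians lay between 0.45 on chromosome III (9 features) and 0.98 on chromosome VI (10 features).

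**Figure D3:**
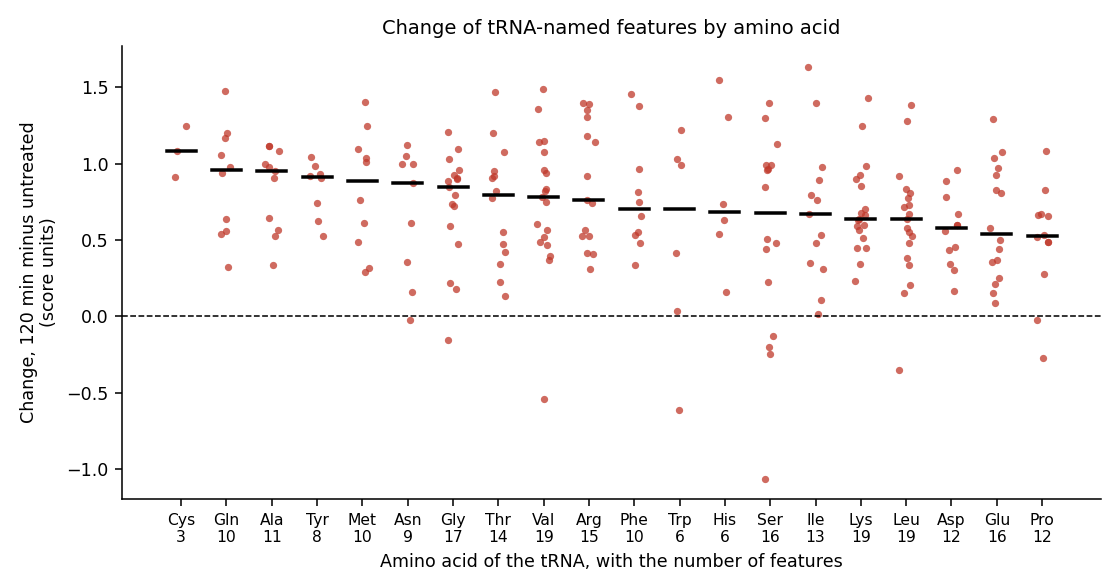
Change in score units (y axis) of each of the 245 measured tRNA-named features (dots), by amino acid (x axis, with the number of features), ordered by median (bars). All 20 medians lie above 0, and 11 features lie below it, among them 4 of serine.

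By anticodon, 1 of 40 groups, UGA of serine, had a median change below 0, at -0.19 over 4 features of 3 genes. The feature of tS(UGA)I had 1.34 after 120 min, against 0.86 in untreated cells, and that of tS(UGA)P had 1.26 against 1.38. Both features of tS(UGA)E were lower after 120 min, with 0.47 against 0.72 and -0.21 against 0.85. The group's median was below 0 in each scaling tried, from -0.16 without centring to -0.70 after quantile normalization. The group was picked for its low median and the scalings reuse the same columns, so this is no independent check. Quantile normalization also lowered the median of all tRNA-named features, to 0.147, and other anticodon groups are not given in that setting. With equal spread UAU of isoleucine (2 features) also had a median below 0, at -0.03. Serine genes with the anticodon AGA changed by a median of 0.96 over 9 features, and those with GCU by 0.96 over 3. The other features below 0 were tS(AGA)B at -0.20, tL(CAA)G2 at -0.35, tG(GCC)C at -0.16, tP(UGG)O3 and tN(GUU)C both at -0.02, and the second of numbered features at tP(UGG)L, tV(AAC)K1 and tW(CCA)K. The leucine gene feature tL(CAA)G2 had 1.17 after 120 min, against 1.52 in untreated cells, among the highest untreated scores.

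Some stretches bear 1 tRNA name but were covered by numbered features, and these differed along the stretch. In 6 stretches both the feature numbered 0 and the feature numbered 1 had values. At tV(AAC)K1 the first had 1.71 after 120 min, against 0.76 in untreated cells, and the second -0.47 against 0.06. At tW(CCA)K the first had 1.23 against 0.81, and the second -1.31 against -0.70. At tE(CUC)D the change was 0.80 at the first and 0.08 at the second, and at tV(AAC)G3 it was 1.07 and 0.47. At tP(UGG)L it was 0.66 at the first and -0.27 at the second. In all 6 stretches the first feature had both the higher score after 120 min and the higher change, and the change was above 0 at 2 of the second features. Without the second of numbered features, a choice made after the values were seen, the tRNA median was 0.74 over 239 features.

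The remaining Pol III genes had 7 measured features, all with a change above 0. SNR6, the U6 gene with a TATA box upstream and a B box beyond its terminator, had 1.92 after 120 min, against 0.09 in untreated cells. SCR1, which encodes the signal recognition particle's RNA, had 2.22 against 0.76, and RPR1, the RNA of RNase P, had 2.23 against 0.85. Their changes of 1.83, 1.46 and 1.37 exceed the tRNA upper quartile of 0.98, and with equal spread they were 1.57, 1.06 and 0.96. SNR52, a box C/D small nucleolar RNA gene made by Pol III, had 0.29 after 120 min, against 0.16 in untreated cells, and stood at 0.62 after 30 min. The 5S ribosomal RNA features changed by 0.43 at RDN5-1, 0.26 at RDN5-2 and 0.21 at RDN5-3, below the tRNA lower quartile of 0.47. With equal spread they were 0.36, 0.13 and 0.16, against a tRNA lower quartile of 0.18, so RDN5-1 then lay above it. Their scores after 120 min, 0.52, 0.60 and 0.30, stayed under most tRNA-named features. The 5S copies are near-identical repeats, which hybridization may fail to separate. RDN37-1, transcribed by Pol I, had no value after 120 min and hence no change.

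Features named for protein genes with a Pol III gene next at higher coordinates had a median change of 0.64, against 0.72 at tRNA-named features. The 231 flanking ORF features had a median score of 1.22 after 120 min, against 0.53 in untreated cells, and a change above 0 at 189 and above 1 at 46. The quartiles of their change were 0.22 and 0.92, and the lowest was -2.64. With equal spread the median change was 0.39, and after quantile normalization 0.145. The 201 features whose ORF has a Pol III gene next only at lower coordinates had a median of 0.06 after 120 min, against -0.04 in untreated cells, a median change of 0.10 and 4 above 1. Counted further out in gene order, the median change of ORF-named features was 0.04 at the second gene before a Pol III gene and 0.02 at the third. On the other side it was 0.10 at the second gene and -0.01 at the third. Features of ORFs with no Pol III gene within 6 places had a median change of 0.02 (3368 features). Among ORF-named features the higher median was thus seen at the gene just before a Pol III gene, and the medians at all other places were near that of distant ORFs.

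**Figure D4:**
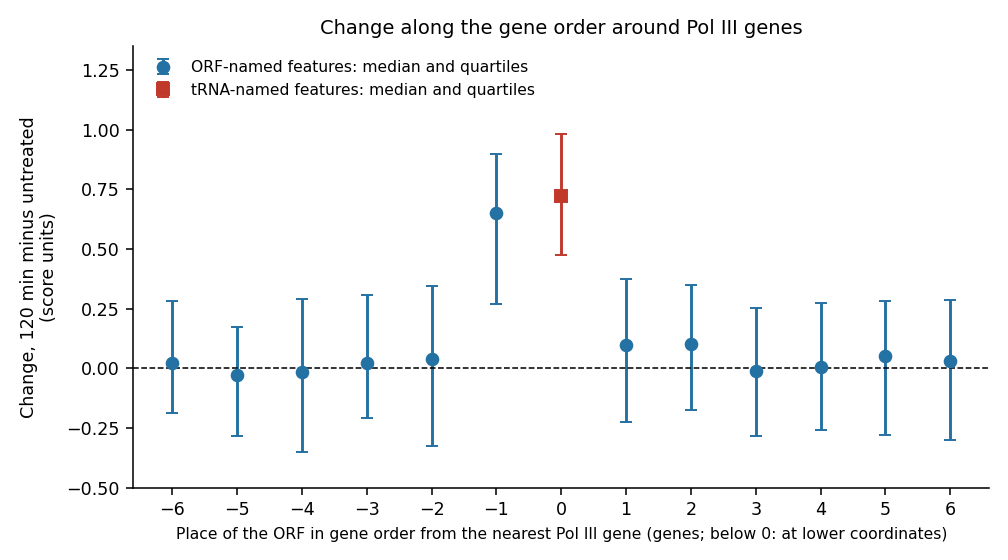
Change in score units (y axis) of ORF-named features by their place in gene order from the nearest Pol III gene (x axis, in genes, below 0 for ORFs at lower coordinates), with tRNA-named features at 0. Points are medians and bars span the quartiles. Only the ORF just before a Pol III gene, with a median of 0.65 over 216 features, approaches the tRNA-named 0.72.

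The highest of these ORF-named features were VAC8, INP2, YNL035C and YBR209W. VAC8, which encodes an armadillo-repeat protein of the vacuole membrane, had 2.07 after 120 min, against -0.20 in untreated cells. INP2, a receptor for peroxisome inheritance, changed by 1.98 from 0.02 in untreated cells. YNL035C, a WD-repeat protein gene, had 2.74 against 0.89, and YBR209W had 2.05 against 0.43. In each case the next gene is a tRNA gene on the strand that points towards the ORF. REX3, an RNA exonuclease gene followed by SNR6, went the other way, with -3.03 after 120 min against -0.39 in untreated cells and 0.34 after 30 min. A value so low in 1 averaged column, beside an SNR6 feature at 1.92, cannot be checked against single arrays. Among ORFs whose Pol III neighbour lies at lower coordinates only, XBP1, a stress repressor gene, had 0.46 after 120 min, against -1.08 in untreated cells. KRE33, an RNA acetyltransferase gene, had -2.11 against 0.06, and DPH6, of diphthamide synthesis, -1.86 against -0.09. SRM1, the exchange factor gene of the Ran GTPase, had -0.57 against 1.24, and YLR108C -0.42 against 1.18.

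The change was less uniform on one side of the tRNA gene than on the other. Strand letters of the gene table put 115 ORF-named features on the 3′ side of the next tRNA gene and 112 on the 5′ side, if these features cover the higher-coordinate flank of their ORF. On the 3′ side the median score was 1.45 after 120 min, against 0.60 in untreated cells, and on the 5′ side 0.61 after 120 min, against 0.40 in untreated cells. The change was above 0 at 109 of 115 features on the 3′ side, with quartiles of 0.47 and 0.95. On the 5′ side it was above 0 at 77 of 112, with quartiles of -0.14 and 0.80, so a part of these features changed as much as the 3′ side and a part did not. The median changes were 0.77 on the 3′ side and 0.47 on the 5′ side, with equal spread 0.47 and 0.24, and after quantile normalization 0.21 and 0.05. Ty elements are known to insert upstream of tRNA genes. The gene table holds no LTRs, so whether an LTR lies between the ORF and the tRNA gene was not tested.

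Numbered features beside 11 of these ORFs could also be set against each other. The last of them, numbered highest, had the higher score after 120 min in 10 stretches and the higher change in 9. HEM2, a heme synthesis gene, had 1.54 after 120 min against 1.20 in untreated cells at its last feature, and 0.12 against 0.67 at its first. MID2, a cell wall sensor gene, had 0.18 against 0.14 at its last feature and -1.13 against -0.14 at its first. The stretches with the lower change at the last feature were ERB1, a ribosome biogenesis gene, with 0.45 against 1.30 at the first, and ASE1, a spindle protein gene, with -0.91 against 1.13. Both first features started below -1 in untreated cells.

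Ty and LTR features changed as a mixture. Over 245 measured features the median was 0.38 after 120 min, against 0.29 in untreated cells, and the median of the change was 0.29 with 170 above 0. With equal spread the median change was 0.15 and after quantile normalization 0.0268. The 86 features above 0.5 in untreated cells had a median change of 0.66, with 70 above 0 and 17 above 1, and 0.33 with equal spread. The 87 features between 0 and 0.5 had a median change of 0.11, with equal spread 0.04. The 72 at or below 0 had 0.18, with equal spread 0.22, so the medians did not run in 1 direction with the untreated score. Across these features the Pearson correlation of the change with the untreated score was 0.28, against -0.34 over isolated ORF features. That score is subtracted within the change, and the 120 min column is the wider one. Both enter these correlations, which were not computed at equal spread. By kind, 13 sigma elements, the repeats of Ty3, had a median change of 0.40 with 11 above 0. The 21 tau elements of Ty4 had 0.35, the 200 delta elements of Ty1 and Ty2 had 0.28, and the 10 omega elements had 0.03. Sigma elements started at the column median, 0.02 in untreated cells, and stood at 0.31 after 120 min. Which of these repeats lie beside a tRNA gene was not looked up.

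At single repeats, YDRWdelta25 had 3.43 after 120 min, against 0.90 in untreated cells, and 0.30 after 30 min. YNLWdelta4 had 1.63 after 120 min, against -0.57 in untreated cells. YKLCdelta4, YGLWdelta6 and YLRCdelta18 changed by 1.39, 1.38 and 1.34 and ended between 1.81 and 2.23. At the other end YOLCdelta1 and YOLCdelta2, on the same chromosome arm, had -1.88 and -1.59 after 120 min, against -0.14 and -0.12 in untreated cells. YPLWdelta6 had -1.41 against 0.09. The change was -1.26 at 1 feature of YCRCdelta6 and -1.24 at YMLWdelta6. Delta elements are repeats of similar sequence, and how far their features cross-hybridize was not tested.

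The classes were also compared within ranges of the untreated score, which is itself subtracted in the change. Among features that stood between 0.5 and 1 in untreated cells, the 114 tRNA-named ones had a median change of 0.79, with 110 above 0. The 87 flanking ORF features had 0.79, with 76 above 0. The 64 Ty and LTR features had 0.58, with 49 above 0. The 219 isolated ORF features had a median change of -0.49, and 48 of them were above 0. With equal spread the tRNA median in this range was 0.51 with 105 above 0, and that of the last class -0.59 with 27 above 0. Above 1 in untreated cells the 64 tRNA-named features had a median change of 0.59, with equal spread 0.20, and 19 isolated ORF features had -1.04. In these ranges most tRNA-named and flanking ORF features stood higher after 120 min than in untreated cells, and most isolated ORF features stood lower.

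**Figure D5:**
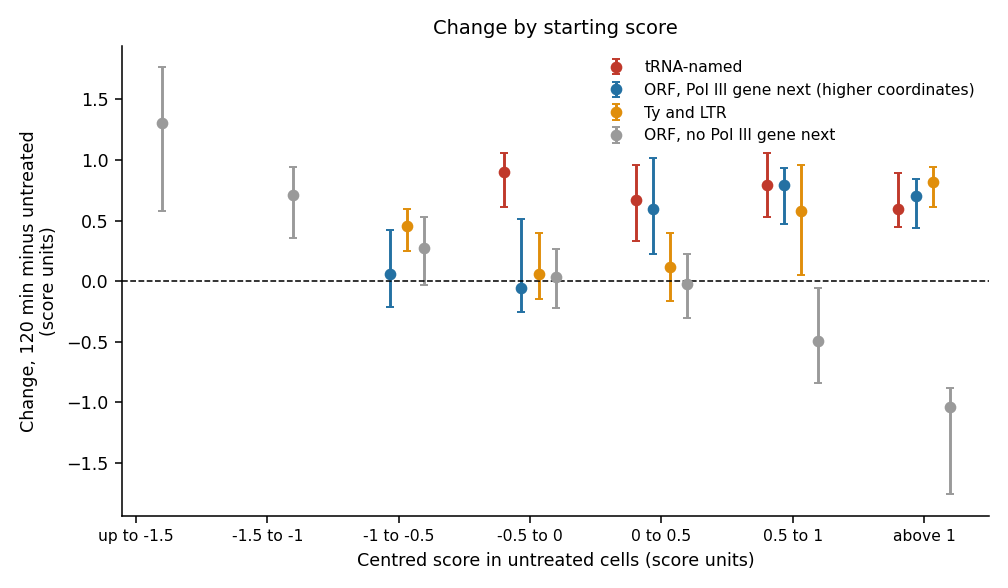
Change in score units (y axis) by the centred score in untreated cells (x axis, in score units) for 4 classes of features. Points are medians and bars span the quartiles, drawn where a class has at least 7 features. Between 0.5 and 1 the tRNA-named median is 0.79 and that of isolated ORF features is -0.49.

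At low untreated scores the isolated ORF features mostly stood higher after 120 min. Isolated ORF features that stood at or below -1.5 in untreated cells numbered 23, and the change was above 0 at 22 of them, with a median of 1.31. They ended at a median of -0.76, still below the column median. The 81 such features between -1.5 and -1 had a median change of 0.71. Between -0.5 and 0 the median change was 0.03 over 2085 features. Over all isolated ORF features the scores of the 2 columns had a Pearson correlation of 0.41, against 0.71 over the tRNA-named features. The 7 tRNA-named features between -0.5 and 0 in untreated cells were all higher after 120 min, by a median change of 0.91. Changes at isolated ORF features go with the untreated score in 1 averaged column, and how far array noise moves that score was not tested.

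The ORF-named features with the highest changes and no Pol III gene beside them mostly started low. OM14, a mitochondrial outer membrane protein gene, had 0.68 after 120 min, against -2.06 in untreated cells, and 1.61 after 30 min. IPT1, of sphingolipid synthesis, had 0.19 after 120 min, against -2.23 in untreated cells, and 1.62 after 30 min. In both the untreated value is the one that stands apart. SIP18, a hydrophilin gene of drought and salt stress, had 0.96 against -1.42, and stood at -0.28 after 30 min. SNA4, a vacuole membrane protein gene, had 1.46 after 120 min, against -0.53 in untreated cells, the highest end point among these 10. ATO3, an ammonium export gene, had 1.07 against -1.08. SHM2, a serine hydroxymethyltransferase gene, and PRT1, a subunit gene of the initiation factor eIF3, changed by 1.96 and 1.83, and PRT1 stayed below the column median at -0.38. LDO45, HXT11 and YBL055C make up the 10, with changes of 2.21, 2.15 and 2.03.

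The lowest changes came mostly from low scores after 120 min, not from high untreated ones. The 120 min column was the wider one, so its low scores weigh more in this ranking. The 194 features below -1 at equal spread had median centred scores of -1.32 after 120 min and 0.22 in untreated cells. Of the 100 features with the lowest changes, 90 stood below -1 after 120 min, against a median of -0.03 in untreated cells and -0.16 after 30 min. Of these features 91 were isolated ORF features. OSH6, an oxysterol-binding protein homologue gene, had -3.28 after 120 min, against 0.07 in untreated cells. DCN1, of cullin neddylation, had -3.42 against -0.42, and KNS1, a LAMMER-family protein kinase gene, had -2.28 against 0.10. PRE8, a proteasome subunit gene, had -2.86 against -0.04. AIM6 and APE1 started high instead: AIM6 had -0.98 after 120 min, against 1.58 in untreated cells, and APE1, an aminopeptidase gene, -1.54 against 1.14. MDM38 changed by -2.42. The others of the 10 lowest in this class were ABZ2 at -2.44, IML2 at -2.43 and the telomere protein gene RIF2 at -2.37.

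Genes of the Pol III machinery are protein genes read by Pol II, and their features were described as a list. Of 16 subunit gene features 11 were above 0, with a median change of 0.19 against 0.07 over all features, and 0 were above 1. RPC17 has a tRNA gene next and had 0.98 after 120 min, against 0.13 in untreated cells. RPC37, a subunit gene of termination and reinitiation, had 1.11 against 0.37, and RET1, the gene of the second largest subunit, changed by 0.59. RPC53, the partner of RPC37, changed by 0.68 from a low untreated score of -1.12. RPC31 and RPC25 had the lowest changes, -0.31 and -0.22. Of 9 transcription factor gene features 2 were above 0, and their median change was -0.34. The TFIIIC genes lay at both ends, TFC4 at -0.82, TFC3 at -0.76 and TFC7 at -0.42, and TFC8 at 0.36 and TFC6 at 0.40. The TFIIIB genes BRF1 and BDP1 changed by -0.45 and -0.34. The range of the factor median over the scalings was -0.34 to -0.28. With so few features the distance from the median over all features was not tested. The feature named for MAF1 changed by 0.40, to 0.03 after 120 min against -0.37 in untreated cells.

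Features named for genes that TOR or nutrients are known to control had median changes between -0.06 and 0.24 by list. Where these features lie relative to the named genes is not given in the labels, so the values may belong to neighbouring DNA. Of 43 features of genes under the stress regulators Msn2 and Msn4, 26 were above 0 and 5 above 1, with a median change of 0.24. Without the 6 next to a Pol III gene the median was 0.17 and 3 were above 1. GSY1, a glycogen synthase gene, changed by 1.65 in that list and PNC1, a nicotinamidase gene, by -0.87. The 127 ribosomal protein features had a median change of -0.06, with 57 above 0, 4 above 1 and 4 below -1. RPL20A had 0.94 after 120 min, against -0.18 in untreated cells, and RPL15A had -1.90 against -0.10. The 39 features of genes under nitrogen catabolite repression had a median of -0.00435, with 2 above 1 and 2 below -1. Among 36 features of TOR signalling genes 20 were above 0, from 0.70 at RIM15, a protein kinase gene, to -1.04 at NPR1, a protein kinase gene that TOR controls.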

How the data were processed

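The members, lists and rules were chosen with earlier results of these data known. The values were deposited by the authors as 1 score per feature and column, and per the labels each column is the mean of 3 replicates normalized to a gene list. The sources used here do not give that list's members, spot filters, log base, ratio direction or array design. The number of value columns not mapped to a sample was 0. No file other than this table was used.

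Each column's median was subtracted from its values, and the change was 120 min minus untreated. The equal-spread setting scaled both columns to the geometric mean of their robust SDs. A feature's class came from its identifier, and neighbours and symbols came from gene order in RefSeq's R64 gene table, where a match was found for 5525 of 5806 ORF-named features. The array's build is unknown, so no coordinates are printed, and sequences were not used here. The limit of 1 score unit describes size and is no test. Named features are the highest and lowest changes over all features, in each class and in each gene list, every Pol III gene other than tRNA genes, and MAF1. Others, such as the serine UGA group, numbered stretches and listed machinery genes, were chosen after their values were seen. The summaries were also run on simulated shifts of columns shuffled separately, which removes the correlation between the columns. The outcome is not given here, and no statement above rests on it. Python 3.11.15, NumPy 2.4.6 and pandas 2.3.3 were used.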

Additional observations from a re-analysis of the deposited data

How the results depend on the processing

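Of 53 values recomputed under other settings, 36 stayed within the interval of the reported value (for medians and for the tRNA-named features above 0 the 95% binomial interval over features, for counts past a limit a factor of 1.5), 17 moved and 0 changed direction. That interval covers the spread between features, not arrays. Counts past a limit cannot change direction. Leaving out the centring, or centring on isolated ORF features, only adds the same constant to every change. The numbers that stayed and that kept direction are therefore partly set by the choice of settings. Medians of single tRNA families, of small classes and of gene lists other than ribosomal proteins were not among these values. With equal spread some of them changed sign. The median went from -0.00435 to 0.06 for nitrogen catabolite repression and from -0.06 to 0.003 for glycolysis. It went from -0.03 to 0.01 for genes under Gcn4 and from 0.39 to -0.03 for UAU of isoleucine. The median changes at equal spread and after quantile normalization were 0.42 and 0.15 for tRNA-named features, 0.39 and 0.145 for flanking ORF features, and 0.15 and 0.0268 for Ty and LTR features. The same settings left 217 and 155 of 245 tRNA-named features above 0. After quantile normalization 52.8% of all features were above 0, and 63.3% of tRNA-named ones. The median change of isolated ORF features was 0.0495 without centring and 0.0447 with centring on that class. Above the positive limit stood 135 features after quantile normalization, 1084 with a limit of 0.5, 32 with 1.5 and 56 with 3 robust SDs of the change. Below the negative limit stood 779, 97 and 140 with these 3 limits. Why the values moved was not tested. Quantile normalization gives both columns the same distribution by construction, and so takes out any difference in spread. Leaving out single arrays was not run, because the columns are averages. No paired analysis was possible because each condition has 1 column. Signal over background was not used here.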

Other observations

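Several further groups of features stood near the background of 0.07 for the median change. Small RNA genes read by Pol II, the telomerase RNA gene TLC1 among them, had a median change of -0.06 over 40 features, with 16 above 0 and 0 above 1. TLC1 itself had 0.59 after 120 min, against 0.27 in untreated cells. SNR45 and SNR53 had the highest changes, 0.91 and 0.88, and SNR42 the lowest, -1.05. Features named for introns of protein genes had a median change of -0.07 over 19, and the 16 centromeres had -0.02, with 1.23 at CEN2. The 8 measured mitochondrial features had a median of 0.05.

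Lists of features named for metabolic and protein turnover genes had medians between -0.13 and 0.21. Here too the place of the features relative to the genes is not given. Proteasome genes had a median change of 0.19 over 37 features, with 25 above 0, from 1.18 at RPN7, which has a tRNA gene next, to -2.82 at PRE8. Ribosome biogenesis genes had 0.13 over 62 features, histone genes 0.21 over 11, and hexose transporter genes 0.07 over 26. Genes of the respiratory chain and ATP synthase had -0.13 over 33 features, with 12 above 0 and 3 below -1. CYC1, for cytochrome c, and COX4, for a cytochrome oxidase subunit, changed by -1.46 and -1.30. Autophagy genes had 0.01 over 36 features, with 0.95 at ATG31, which has a tRNA gene next, and -1.23 at ATG36. Glycolytic genes had -0.06 over 21 features. Amino acid synthesis genes under Gcn4 had -0.03 over 59, with -2.27 at CPA1 and -1.33 at ARG8. Genes of the retrograde response and the tricarboxylic acid cycle had 0.10 over 23 features, 12 of them above 0. Leaving out the 4 that neighbour Pol III genes turned this last value to -0.07, with 8 of 19 above 0.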
